A study of Mus musculus with 2 samples.

Results

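The keratin gene family of TUBO cells was described from a table of raw counts with 31017 genes. Its members were all genes of the table whose symbol is Krt followed by a number and at most 1 letter, which left out the keratin-associated proteins and gave 53 members, 28 of type I and 25 of type II. TUBO is a mouse mammary cancer line from a tumour of a BALB/c mouse carrying a rat Her2/neu transgene. The cells were grown untreated as flat cultures on plastic, and 2 libraries of the same group were sequenced, so levels are described and no condition is compared with another. The labels do not say whether the libraries came from separate cultures, so the spread between them may be technical. Replicate 1 held 35453278 counts and replicate 2 held 34098259.

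Keratins form the intermediate filaments of epithelial cells. Each filament is built from obligate pairs of an acidic type I and a basic type II keratin, and the pairs expressed change with the kind of epithelium. Simple epithelia such as the luminal layer of the mammary gland use Krt8 and Krt18, often with Krt7 and Krt19. Basal and myoepithelial cells use Krt5 and Krt14, stratified epithelia use many further pairs, and hair follicles have their own sets. Apart from Krt18, the mouse type I genes lie together on chromosome 11, and the type II genes lie together on chromosome 15 with Krt18 at one end.

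TUBO cells had a narrow keratin repertoire of simple-epithelial type. Levels are counts scaled to the effective library size (CPM), and levels of different genes are ordered per kb of length except where counts or CPM are named. Of the 53 members, 7 reached 1 CPM or more in each library and are called detected, which is 13.2% of the family against 37.7% of all genes of the table. These were Krt18, Krt7, Krt8, Krt23, Krt80, Krt87 and Krt10. A further 20 members had at least 1 count without reaching that level, and 26 had no count in either library. So 27 of 53 members had any count, against 59.0% of all genes. At 100 CPM or more in both libraries stood 3 members, against 7.46% of all genes. Keratins received 0.282% of all counts in replicate 1, with a 95% Wilson interval from 0.280% to 0.284%. In replicate 2 they received 0.270%, with an interval from 0.268% to 0.272%. Krt18, Krt7 and Krt8 together held 97.4 ± 0.0917% of the keratin counts (SD, n = 2).

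**Figure D1:**
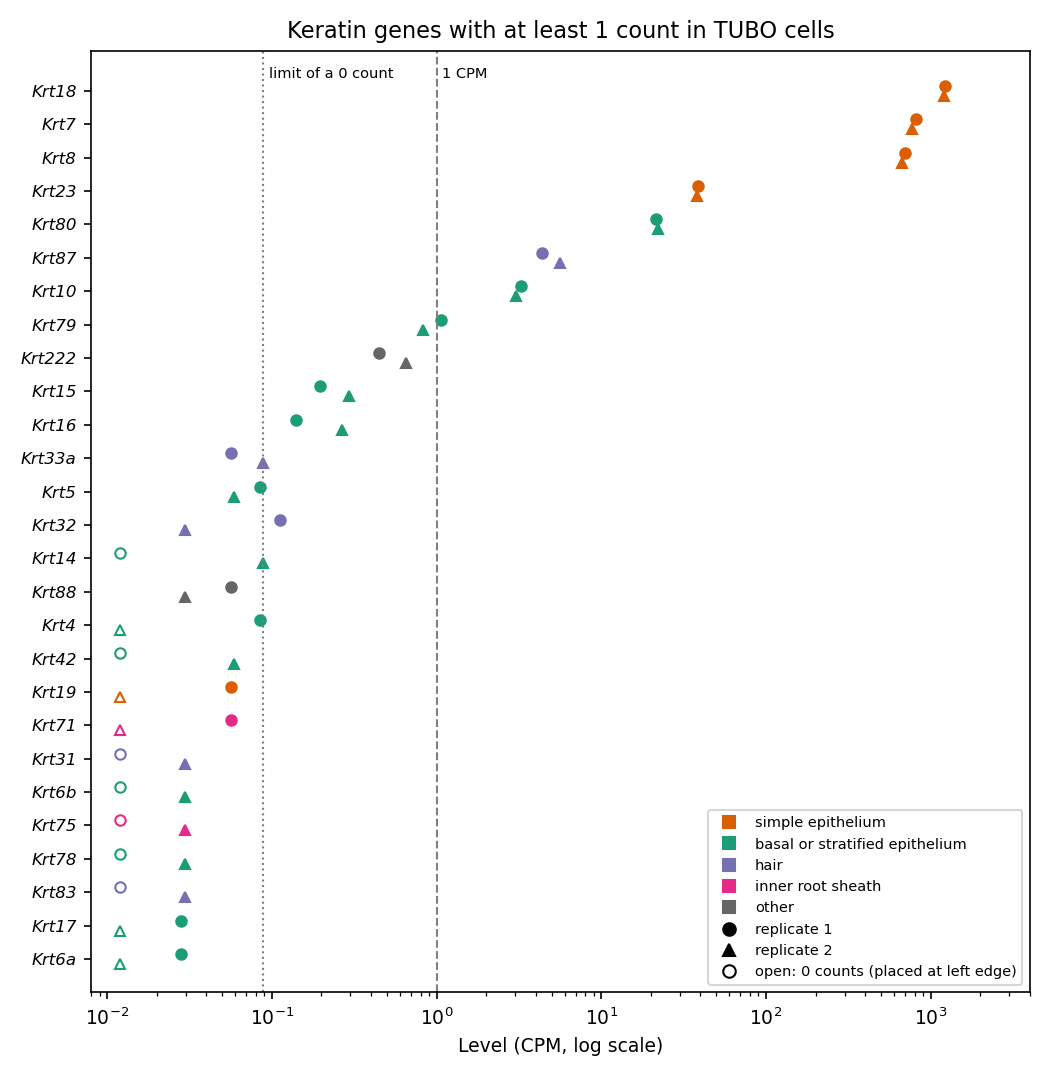
Level in CPM on a log axis of the 27 keratin genes with at least 1 count, with circles for replicate 1, triangles for replicate 2, colours for the class of epithelium and open symbols at the left edge for 0 counts. Krt18, Krt7 and Krt8 lie between 670.5 and 1228 CPM, Krt23 and Krt80 between 21.5 and 38.7 CPM, and all members from Krt222 downward lie below 1 CPM in both.

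The bases before the start sites of the simple-epithelial genes, and of the basal keratin gene Krt5 beside them, are shown because the family divides into a few abundant and many near-silent genes. Each is the 250 bases upstream of the RefSeq start site (GRCm38.p6), written 5′ to 3′ along the gene's strand, with matches to the motifs named below in capitals. GENCODE M21 starts some of these genes further upstream, so that all 250 bases printed for Krt7 lie within its annotated gene, 162 of them in exons, as do 140 of those for Krt8, 36 of those for Krt18 and 17 of those for Krt23. RefSeq windows were matched for 36 of the 53 members, among them 5 of the 6 simple-epithelial genes and not Krt19, Krt80 or Krt87.
Krt18, chr15:102027966-102028215, plus strand: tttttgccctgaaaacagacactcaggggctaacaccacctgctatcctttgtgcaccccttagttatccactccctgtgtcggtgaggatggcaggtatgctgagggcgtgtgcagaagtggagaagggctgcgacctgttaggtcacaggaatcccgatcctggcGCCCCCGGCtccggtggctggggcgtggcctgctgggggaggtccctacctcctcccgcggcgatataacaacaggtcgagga
Krt8, chr15:102004343-102004592, minus strand: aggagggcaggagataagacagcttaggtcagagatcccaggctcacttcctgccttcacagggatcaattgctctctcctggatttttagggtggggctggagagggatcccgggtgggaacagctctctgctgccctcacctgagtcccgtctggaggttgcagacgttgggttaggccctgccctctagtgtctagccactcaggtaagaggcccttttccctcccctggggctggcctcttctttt
Krt7, chr15:101412153-101412402, plus strand: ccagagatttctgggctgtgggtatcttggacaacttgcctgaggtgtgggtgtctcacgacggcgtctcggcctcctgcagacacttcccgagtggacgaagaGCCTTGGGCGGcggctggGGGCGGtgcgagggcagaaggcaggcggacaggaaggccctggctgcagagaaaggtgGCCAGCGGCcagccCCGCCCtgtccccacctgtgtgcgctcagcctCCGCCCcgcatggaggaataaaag
Krt23, chr11:99493121-99493370, minus strand: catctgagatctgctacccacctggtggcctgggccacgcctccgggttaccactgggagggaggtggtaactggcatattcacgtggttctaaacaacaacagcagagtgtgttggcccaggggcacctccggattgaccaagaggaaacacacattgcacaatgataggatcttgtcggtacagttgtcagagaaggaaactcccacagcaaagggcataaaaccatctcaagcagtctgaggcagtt
Krt20, chr11:99438154-99438403, minus strand: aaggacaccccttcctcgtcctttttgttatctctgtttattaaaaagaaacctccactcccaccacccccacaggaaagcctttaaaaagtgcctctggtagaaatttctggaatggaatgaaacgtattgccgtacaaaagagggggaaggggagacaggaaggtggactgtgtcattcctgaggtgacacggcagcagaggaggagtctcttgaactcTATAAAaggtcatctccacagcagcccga
Krt5, chr15:101712906-101713155, minus strand: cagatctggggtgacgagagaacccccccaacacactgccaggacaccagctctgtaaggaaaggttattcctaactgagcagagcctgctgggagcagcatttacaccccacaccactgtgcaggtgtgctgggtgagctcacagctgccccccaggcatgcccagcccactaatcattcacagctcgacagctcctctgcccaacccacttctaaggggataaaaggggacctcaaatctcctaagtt

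Motifs were searched on both strands as exact letters, and matches may overlap. The TATA box TATAAA was found in the Krt20 window, its first base 29 bases upstream of the start site, and in none of the other printed windows. The 36 members had 37 windows, since Krt13 has more than 1 start site, and TATAAA was found in 17 of them, against 12.4% of 32851 windows of all genes. Only 1 of the 5 windows of detected members, that of Krt10, held it, against 16 of the 32 windows of the other members. Of these 5 windows, that of Krt7 lies wholly and those of Krt8, Krt18 and Krt23 partly within the annotated gene. The exact search also passes over near matches, such as ataaaa close to the end of the Krt7, Krt23 and Krt5 windows. So these counts do not say whether TATA elements differ between detected and other members. The GC box GGGCGG occurred 4 times in the Krt7 window and in 2 of the 37 keratin windows, those of Krt7 and Krt75, against 32.7% of all windows. The AP-2 motif GCCNNNGGC occurred 2 times in the Krt7 window and 1 time in the Krt18 window, in 5 of the 37 keratin windows and in 13.7% of all windows. The CCAAT box CCAAT was found in 15 keratin windows (33.8% of all windows) and the AP-1 motif TGANTCA in 2 (6.75% of all windows), in none of the printed ones. A match is a run of letters and not a measured binding site, and a window without a match says nothing of the factor.

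Krt18, the type I keratin of simple epithelia, was the most abundant member. It lies on chromosome 15 from 102028180 to 102032027 (GRCm38) and stood at 1228 CPM in replicate 1 and 1206 CPM in replicate 2. Divided by its exonic length of 1437 bases, its level was 847 ± 10.6 CPM per kb, which ranked 17 among the 30477 genes with a length. Krt8, its type II partner (chromosome 15, 101996698 to 102004482), stood at 697 and 670.5 CPM. Per kb this was 349 ± 9.60, which ranked 50. The Krt8 level was thus below that of Krt18 in both libraries, at 0.412 ± 0.00617 of it per kb. Both ranks use merged exons, which lower the level of genes whose merged exons exceed any of their transcripts. Krt18 and Krt8, with 1 annotated transcript each, are not lowered in this way. Ranks with RefSeq-linked lengths were not computed. A keratin 8 pseudogene, Krt8-ps, shares 26.9% of the 50-base windows of Krt8, and how reads matching both were counted is not given in the sources used here. With only windows not found in other genes counted as length and the counts unchanged, the Krt8 to Krt18 ratio was 0.582, still below 1. This setting assumes that reads matching other genes were left out of the counts.

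Krt7 is the other type II keratin of simple epithelia and is known from ductal and glandular cells. The gene (chromosome 15, 101411043 to 101430313) stood at 810 CPM in replicate 1 and 766 CPM in replicate 2, above Krt8 as counts. Per kb of exonic length it was at 112 ± 4.41, below Krt8, with a Krt7 to Krt8 ratio of 0.320 ± 0.00383. This ratio depends on the length used. The union of its annotated exons is 7049 bases, which includes a retained-intron transcript. Its longest transcript, which is also the longest one linked to RefSeq, is 4094 bases. With that length the level was 192 ± 7.59 CPM per kb and the ratio 0.551. A shorter transcript would raise both and none was tried, so the order of Krt7 and Krt8 per kb holds only for the lengths used.

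Summed over all members, type I keratins stood at 881 CPM per kb in replicate 1 and 866 in replicate 2, and type II keratins at 477 and 457. The type II to type I ratio was 0.535 ± 0.00895 per kb. It was 0.631 with RefSeq-linked lengths, and 1.19 when counts were not divided by length, so the order of the sums turns on that division. Krt18 alone made up 847 of the mean type I sum of 873 CPM per kb. Without Krt18 and Krt8, the most abundant member of each type, the ratio was 4.43, with Krt7 and Krt23 as the main members left. Simple-epithelial genes made up 99.4 ± 0.0478% of the keratin level per kb, and basal or stratified genes 0.410 ± 0.0145%.

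**Figure D2:**
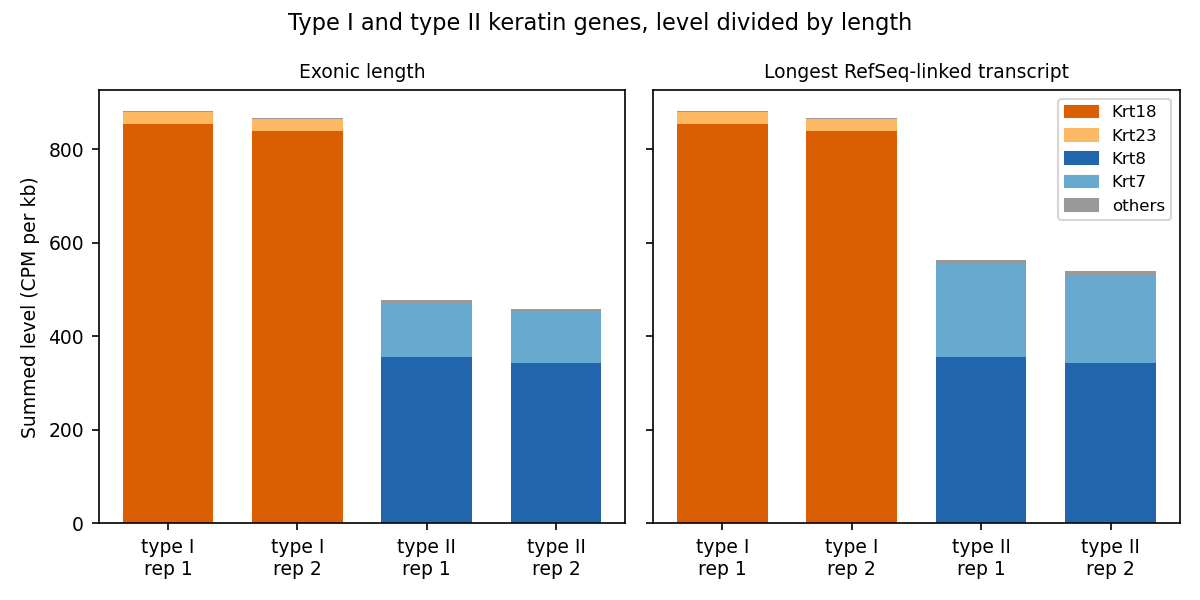
Summed level in CPM per kb of type I and type II keratin genes in each library, with exonic lengths on the left and RefSeq-linked transcript lengths on the right, and the members stacked. Krt18 fills nearly all of the type I bars, and the Krt7 part of the type II bars grows from 112 to 192 CPM per kb with the shorter length.

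Below the leading genes, 4 members were detected at lower levels. Krt23, a type I keratin (chromosome 11, 99477974 to 99493137), was the only other simple-epithelial gene detected, at 38.7 CPM in replicate 1 and 37.9 CPM in replicate 2. Per kb it was at 24.5 ± 0.322, which is 0.0289 of Krt18 in both libraries. Krt80, a type II keratin of many epithelia counted here with the stratified class (chromosome 15, 101347444 to 101370162), was at 21.5 and 22.3 CPM, or 3.42 ± 0.0884 CPM per kb of exonic length and 7.13 ± 0.184 with its RefSeq-linked length. An antisense gene, Gm35853, overlaps 263 bases of its exons, as Gm671 does with 77 bases of Krt7 and the lincRNA gene Gm36026 with 101 bases of Krt8, and whether counting used the strand is not given in the sources used here. Krt23 stood above Krt80 in both libraries, 7.16 ± 0.279 times per kb of exonic length.

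Krt87, a type II hair keratin (chromosome 15, 101431038 to 101438804), had 155 and 190 counts, or 4.35 and 5.60 CPM. It lies on the opposite strand to Krt7 with facing 3′ ends, 724 bases from it, and its counts were 0.537% and 0.731% of those of Krt7. Of its 50-base windows 36.9% are found in other genes, so its level is uncertain. The gene that shares most is Gm49425, with 19.9% of the windows, followed by the hair keratins Krt81, Krt86 and Krt83. Those 3 hair keratins had at most 1 count. Krt10, the suprabasal type I keratin of the epidermis (chromosome 11, 99385254 to 99389364), had 116 and 103 counts, or 3.25 and 3.04 CPM. Its usual partner Krt1 had no count. An antisense gene, Gm11940, shares 146 exonic bases with Krt10 and had 21 and 12 counts.

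Most of the remaining members were near or below the level that a count of 0 allows, which is 0.0842 CPM in replicate 1 and 0.0885 CPM in replicate 2 for counting error only. The highest were Krt79 (38 and 28 counts, 1.07 and 0.826 CPM) and Krt222 (16 and 22 counts), followed by Krt15 (7 and 10 counts) and Krt16 (5 and 9 counts). Krt79 passed 1 CPM in replicate 1 only. None of the other 16 had more than 4 counts in a library, and together the 20 genes held 86 counts in each library. Krt19, the smallest type I keratin and a usual partner of Krt7 and Krt8 in luminal cells, had 2 counts in replicate 1 and 0 in replicate 2. Krt20, the simple-epithelial keratin of gut and urothelium, had no count.

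The keratins of the basal mammary layer were at the same low level. Krt5 had 3 and 2 counts and its type I partner Krt14 had 0 and 3 counts. Krt17, a keratin of basal and wound-activated cells, had 1 and 0 counts, as did the activation keratin Krt6a, which shares 57.2% of its windows with other genes. Of the 21 basal or stratified keratins, 2 were detected, 11 had a count without reaching 1 CPM in both libraries and 8 had no count, including the epidermal genes Krt1, Krt2 and Krt9. Of the 15 hair keratins Krt87 alone was detected and 10 had no count, and the remaining 4, among them Krt33a (2 and 3 counts) and Krt32 (4 and 1 counts), had too few counts to be ordered. None of the 8 genes counted here as inner root sheath keratins was detected. Of them 6, including all type I members Krt25 to Krt28, had no count. The others were Krt71 (2 and 0 counts) and Krt75 (0 and 1 counts), a keratin of the companion layer placed in this class. Krt88, a type II gene outside these classes, had 2 and 1 counts. The median level was 0.0140 CPM over the 53 members and 0.0730 CPM over all genes.

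The abundant genes stood at the edges of the chromosome 15 cluster. From Krt80 to Krt18 it spans 685 kb and holds 26 members, 5 of them detected. Krt80, Krt7 and Krt87 are its first 3 keratin genes, and Krt8 and Krt18 are its last, with start sites 23.7 kb apart. The 19 members between, from Krt88 to Krt4 over 477 kb, held 11 counts in replicate 1 and 6 in replicate 2 in all, with no single count above 3. Krt79 and Krt78 lie between that stretch and Krt8. The nearest protein-coding genes of the table beyond the edges were the translation factor gene Eif4b after Krt18, at 432 ± 8.93 CPM, and 6030408B16Rik before Krt80, with 7 and 8 counts.

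On chromosome 11 the cluster holds 27 members over 1037 kb, of which Krt10 and Krt23 were detected. The 17 members from Krt39 to Krt42, over 756 kb, held 21 and 29 counts. In that stretch also lie many genes of keratin-associated proteins, the matrix proteins of hair, and none of the 57 in the table, on any chromosome, had a count. The nearest protein-coding genes of the table on either side were both detected, with the chromatin remodelling gene Smarce1 at 64.9 ± 0.636 CPM before Krt222 and the translation factor gene Eif1 at 270.3 ± 4.64 CPM after Krt42.

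**Figure D3:**
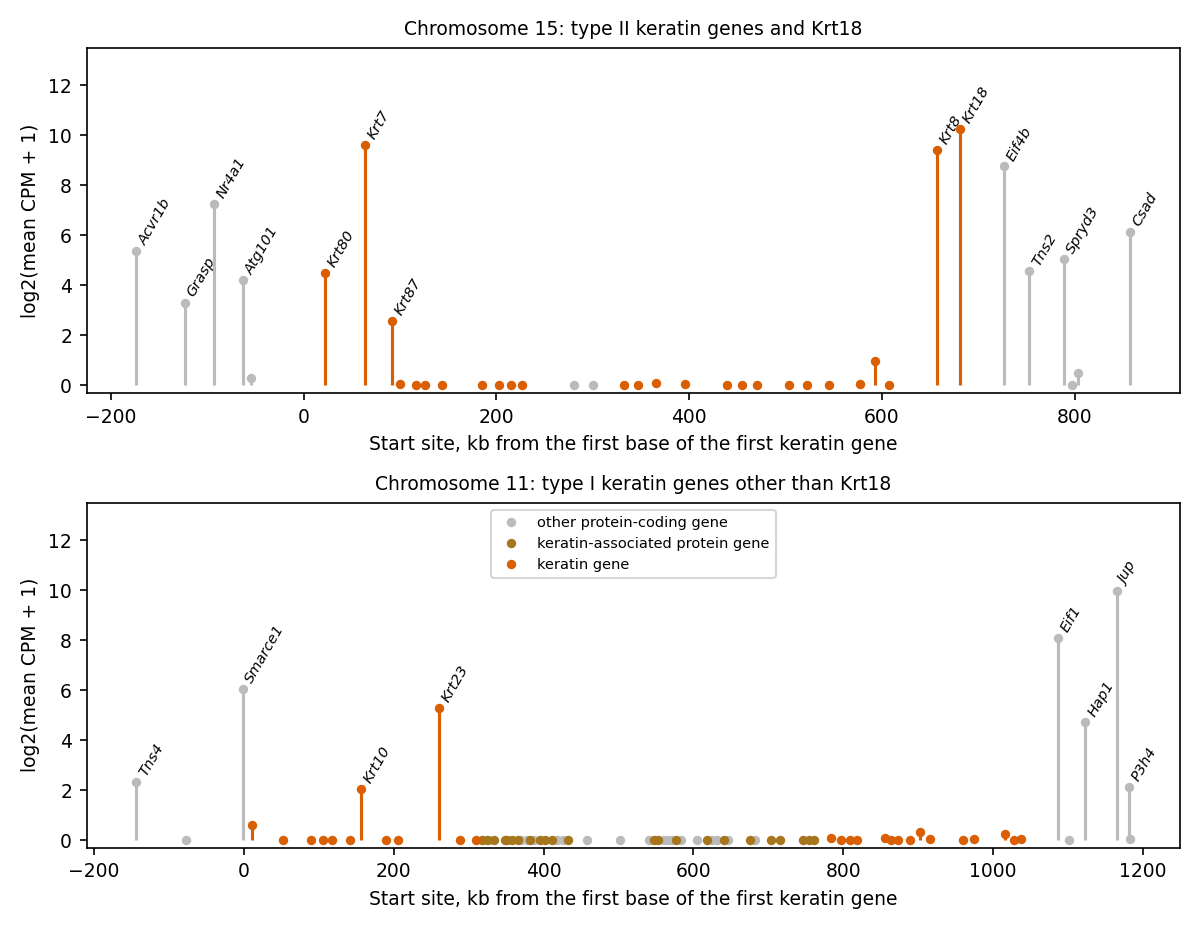
log2(mean CPM + 1) of protein-coding genes against the distance of their start site in kb from the first base of the first keratin gene, for the clusters on chromosomes 15 and 11, with keratin genes in orange, keratin-associated genes in brown and other genes in grey; genes at a mean of 1 CPM or more are named. The detected keratins of chromosome 15 stand at the edges of the cluster, and the 19 genes from Krt88 to Krt4 lie at or near 0.

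Among the intermediate filament genes of these cells, the highest per kb were keratins. Krt18 and Krt8 were followed by Nes, the gene of nestin, a filament protein of progenitor cells, at 148 CPM per kb in replicate 1 and 153 in replicate 2. Krt7 came after Nes with exonic lengths and before it with RefSeq-linked lengths (192 ± 7.59 against 158 ± 3.62 CPM per kb). The nuclear lamin gene Lmna stood at 76.3 ± 2.68 CPM per kb of exonic length and the mesenchymal filament gene Vim at 23.3 ± 1.64, close to Krt23. Krt8 was 14.5 and 15.4 times as abundant as Vim per kb in replicates 1 and 2, and 4.58 ± 0.0351 times as abundant as Lmna, all with exonic lengths. With RefSeq-linked lengths, which leave Krt8 and Krt23 as they are, Lmna stood at 141 ± 4.96 CPM per kb and Vim at 50.5 ± 3.55, above Krt23. Of the 18 other filament genes 9 were detected, against 37.7% of all genes, and 5, including the muscle gene Des and the neuronal gene Prph, had no count.

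**Figure D4:**
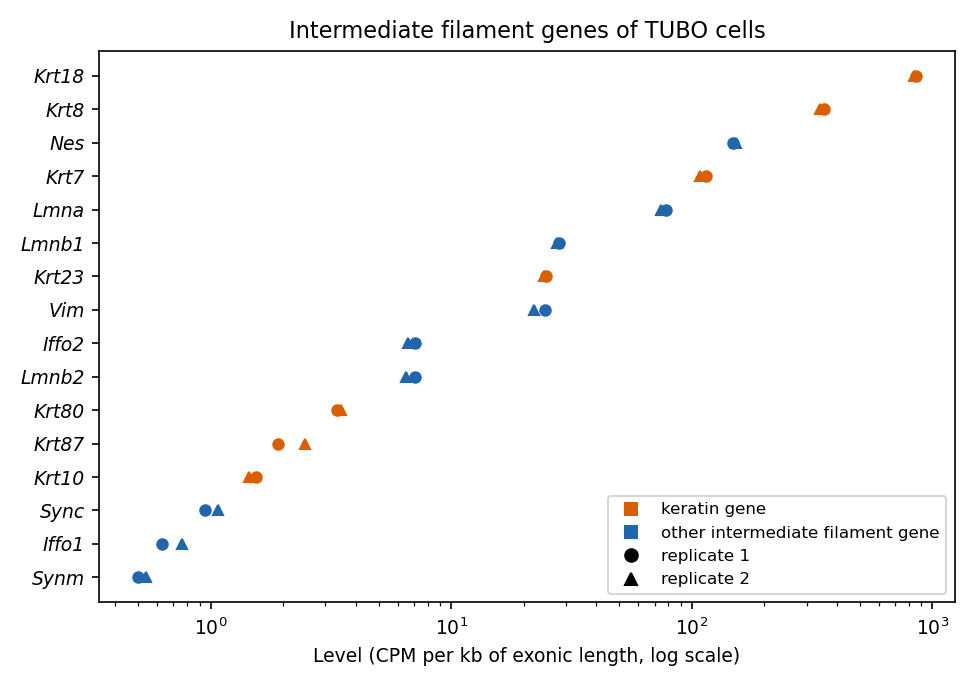
Level in CPM per kb of exonic length on a log axis of the 7 detected keratin genes (orange) and of the other intermediate filament genes above 0.3 CPM per kb (blue), with circles for replicate 1 and triangles for replicate 2. Krt18 and Krt8 lead, Nes lies between Krt8 and Krt7, and Vim lies beside Krt23.

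The genes listed as cytolinkers and junction proteins were mostly detected, and those listed for the cornified envelope mostly were not. Of 22 genes of cytolinkers, desmosomes and hemidesmosomes 19 were detected, against 37.7% of all genes, led per kb of exonic length by plakoglobin, Jup (157 ± 9.01 CPM per kb), the integrin gene Itgb4 (71.3 ± 1.45) and the desmosome gene Perp (69.1 ± 3.11). With RefSeq-linked lengths Jup stood at 316 ± 18.1 CPM per kb and the integrin gene Itga6 came second, above Itgb4 (81.2 ± 1.65) and Perp. The desmosomal cadherins of upper epidermis, Dsg1a and Dsc1, had no count, and Dsc3 had 1 count in each library. Other members of that list found in stratified epithelia were detected, with Pkp1 at 118 ± 1.37 CPM and Dsg3 at 42.5 ± 1.21 CPM. Ppl (102 ± 2.75 CPM) and Evpl (7.68 ± 0.0554 CPM) were also detected. These last genes were listed here as cytolinkers and not with the cornified envelope. Of 20 genes that regulate or modify keratins 17 were detected, against 37.7% of all genes. They were led per kb of exonic length by the 14-3-3 gene Ywhaz (161 ± 6.87 CPM per kb), Junb (71.9 ± 1.24) and the kinase gene Csnk1a1 (52.7 ± 0.605). With RefSeq-linked lengths Csnk1a1 (136 ± 1.56) stood above Junb (91.5 ± 1.58) and below Ywhaz (202 ± 8.60). Trp63, the gene of the basal regulator p63, had 2 and 3 counts. Of 19 listed cornified envelope genes only Cdsn was detected (1.19 ± 0.125 CPM per kb), against 37.7% of all genes, and 12, including Lor and Flg, had no count.

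Marker lists were read against the label of a mammary cancer line. All 5 epithelial markers were detected, with a summed level of 2448 to 2536 CPM. Of 7 luminal mammary markers 5 were detected (641 to 649.5 CPM). The others were Esr1, with 0 and 2 counts, and Pgr, with no count. By the same rule 37.7% of all genes were detected. None of the 8 listed basal or myoepithelial markers was detected (2.16 to 3.13 CPM), and 1 of 8 keratinocyte markers, Krt10, was (3.59 to 3.63 CPM), with Krt1, Lor, Flg and Dsg1a at 0. Krt5 and Krt14 are on both of these lists, and Krt1 and Krt10 are on the keratinocyte list. For these genes the lists repeat the keratin values given above. Fibroblast markers summed to 7.91 to 8.93 CPM with only Pdgfra detected of 7, while of 4 endothelial and 5 leukocyte markers none was detected.

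The leading keratins were slightly lower in replicate 2. An exact binomial test of the 2 counts of each gene, which covers counting error only, was run on 13336 genes with Benjamini-Hochberg adjustment over all of them. It called 8.13% of the genes, and 2 of the 9 keratins tested. Both were lower in replicate 2, as were 4.46% of all genes tested, and no keratin was called higher, against 3.67% of all genes. The test calls smaller differences at higher counts. The 2 keratins called, Krt7 and Krt8, had means of 788 and 684 CPM, against a median of 27.4 CPM over all genes tested. The shares of all genes are therefore not matched to them for level. Krt7 had a log2 ratio of replicate 2 to replicate 1 of -0.08 (adjusted p = 8.2e-09, exact binomial test) and Krt8 one of -0.06 (adjusted p = 0.00082). Krt18, at -0.03, was not called with TMM scaling (adjusted p = 0.093), but was with library totals (-0.04, adjusted p = 0.00095) and with DESeq2 size factors (-0.03, adjusted p = 0.025). Krt87 (0.37, adjusted p = 0.15) and Krt80 (0.05, adjusted p = 0.79) were higher in replicate 2 without passing the test. The median log2 ratio was -0.03 over the 9 keratins and -0.0017 over all genes tested. With a dispersion estimated from these same libraries added, the exact test of edgeR called 0 keratins, with 1 at an unadjusted p under 0.05, and 0.142% of all genes. That dispersion takes in the difference being tested, so few calls follow from the setup and do not show that the libraries are alike.

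**Figure D5:**
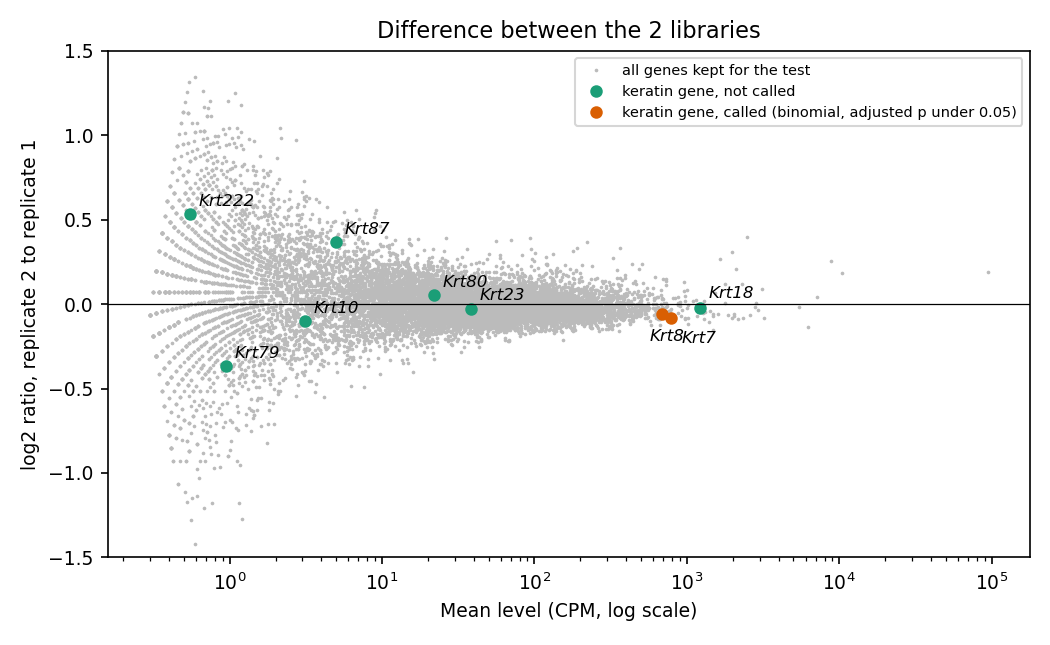
log2 ratio of replicate 2 to replicate 1 against the mean level in CPM on a log axis, for the 13336 genes tested (grey; 2 lie outside the plotted range) and the 9 keratin genes among them, orange where the binomial test called them. Krt7 and Krt8 lie just below 0, at -0.08 and -0.06, within the cloud of other genes.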

How the data were processed

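Both TUBO libraries were made from mRNA with a stranded kit, per the labels' protocols. The values deposited by the authors are raw read counts for each gene symbol. STAR 2.7.9a, featureCounts and mm10 are named in the submitters' processing notes. Annotation release, strand use and the counting of reads with several matches: not given in the sources used here. Every gene of the table was scaled to CPM with edgeR 4.0.16 TMM factors (R 4.3.3). Of the symbols 98.3% matched a single gene of GENCODE M21 (GRCm38), whose merged exons gave lengths. The RefSeq-linked length is that of the longest linked transcript, or else of the longest protein-coding one. Classes by kind of epithelium were assigned from general knowledge of the family. Windows of 50 bases were looked up in all GENCODE transcripts on both strands. Promoter windows are RefSeq's.

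The binomial test ran on genes kept by filterByExpr and was tested on simulated Poisson counts. These hold counting error only, as the test assumes, so that check does not cover further spread between real libraries. DESeq2 1.42.0 gave alternative size factors. Intervals and the floor of 3 counts cover counting error only, since reads carry no molecular identifiers.

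The members and lists were chosen with earlier results of these data known. The genes named are each detected member, the 3 highest of each class, the preset members Krt5, Krt14, Krt15, Krt17, Krt19, Krt20 and Krt6a, the 3 highest per kb of each list with up to 3 of its members without a count, and the genes that bound each cluster. Trp63, Vim, Nes, Itga6, Dsc3, Pkp1, Dsg3, Ppl, Evpl, Esr1 and the overlapping or sequence-sharing genes were singled out after their values were seen.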

Additional observations from a re-analysis of the deposited data

How the results depend on the processing

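The number of detected keratins was 7 and ranged from 5 (at 5 CPM) to 9 (at 10 counts), and was 7 to 8 with a library left out. The share of counts in keratins was 0.276% and rose to 0.308% with Gm26917 and Gm42418 left out of the total. Without division by length, the type II to type I ratio was 1.19, the Krt8 to Krt18 ratio 0.562, the Krt7 to Krt8 ratio 1.15 and the simple-epithelial share 98.8%. With the longest transcript they were 0.630, 0.412, 0.551 and 99.3%, and with the RefSeq-linked transcript 0.631, 0.412, 0.551 and 99.2%. Dividing the unchanged counts by the length of unshared windows, as if shared reads had been left out, gave 0.701, 0.582, 0.227 and 99.4%. These last 2 settings were chosen after seeing the data. Without the most abundant member of each type the type II to type I ratio was 4.43. With a library left out, the ratios were 0.528 to 0.541, 0.408 to 0.417 and 0.317 to 0.323. Binomial calls were 2 to 3 keratins and 972 to 1295 of all genes over the scalings and filters. They were 0 and 19 with edgeR's exact test, which adds the spread between these same libraries and so calls few genes by its setup. No paired analysis was possible because the study has 1 group. Of the members that were not detected, 26 had no count and 18 at most 10 counts, too few to rank them at this depth.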
